A study of Mus musculus with 44 samples.

Results

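Inner cell masses (ICMs) of early mouse blastocysts (E3.75) that lacked Oct4, the POU-family transcription factor encoded by Pou5f1, were compared with control ICMs by ATAC-seq. This assay reads open chromatin from the sites at which the Tn5 transposase inserts into DNA. The comparison held 8 of the 44 libraries of the series, 4 of Pou5f1-KO and 4 of Ctrl early ICM, and every one of the 152393 peaks of the series was tested in it. Pou5f1-KO embryos lacked the maternal and the zygotic copy of the gene. Their mothers were Pou5f1 flox/flox; Zp3-Cre, so that Cre, made in growing oocytes, deleted the floxed allele, and their fathers were Pou5f1 +/mKO2. An embryo that inherited the paternal mKO2 allele was recognised by its orange fluorescence and counted as Pou5f1-KO, and its unlabeled sibs, which carried a wild-type paternal copy but likewise lacked the maternal one, were the Ctrl. The labels give B6C3F1 for all of them. From E2.5 onward KO and Ctrl embryos developed in culture, in KSOM medium, and became early blastocysts there. The medium held the MEK inhibitor PD0325901 at 1 μM, so FGF/ERK signalling was inhibited in KO and Ctrl alike. The outer trophectoderm was removed by immunosurgery, and each library was made from a pool of ICMs.

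Groups that share no library with this comparison served as readouts: Pou5f1-KO and Ctrl late morulae (E3.25, 3 libraries each, no inhibitor), Pou5f1-KO and Ctrl late ICMs (E4.5, 4 libraries each, grown with the inhibitor), Pou5f1-KO and Ctrl morulae (E2.75, 3 libraries each, no inhibitor), and Sox2-KO and Ctrl early ICMs (E3.75, 4 libraries each, grown with the inhibitor). The Sox2 line was bred in the same way, from Sox2 flox/flox; Zp3-Cre mothers and Sox2 +/EGFP fathers, and its Ctrl embryos also lacked the maternal copy of that gene. Values are the authors' rlog, a log2 scale of Tn5 insertions in windows of 200 bp, in which weak peaks are drawn toward their mean over libraries and differences at them are understated. The insertion counts behind the values were not used here, and sequencing depth is therefore unknown. A difference is KO minus Ctrl in log2 units, and a peak is called decreased or increased where limma, fitted to all 44 libraries, gave an adjusted p under 0.05. The correlation over peaks between libraries of 1 group was 0.838 to 0.871 in Ctrl and 0.795 to 0.874 in Pou5f1-KO, and Pou5f1-KO replicate 1 had the lowest values.

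Oct4 and Sox2 bind DNA side by side on a composite element, a SOX site followed directly by an octamer, and such elements lie in many enhancers of naive pluripotency genes. In the blastocyst Oct4 is kept in the ICM and in the epiblast that derives from it, while the outer cells become trophectoderm under TEAD4, CDX2 and GATA3. In embryos without Oct4 the inner cells fail to keep the pluripotent state. Accessibility at an enhancer is often, but not always, lost when the factors that bind it are missing.

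The sequences below carry the main pattern of the comparison. The first set shows the best match to the composite OCT-SOX word in peaks with large decreases and in a pair of known enhancers, with the 15 bases of the word in capitals. The word is CNTTGTN followed directly by ATGCAAAT, with mismatches counted over its 13 fixed letters. Each is read 5′ to 3′ on the strand of the word, from GRCm38 (mm10).

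Galntl6 (chr8:57733031-57733060, minus strand): caggacccCTTTGATATGCTAAAtaggcac
Ncam2 (chr16:81481260-81481289, plus strand): tgcctgcCTTTGTTATGCACAGacagtaaa
Gm6871 (chr7:41582219-41582248, plus strand): tagaaccCATTCTTATGCATATtacaaatt
Cntnap5b (chr1:100878219-100878248, plus strand): ttgcacaCATAGATATGCTAATgtctcaga
Nckap5 (chr1:126151133-126151162, minus strand): aaagccttCCTTGGCATGCCAATctaaatc
Socs2 (chr10:95456317-95456346, plus strand): gacatgtCATTGTGATGCTTATaccaagaa
Sox2 (chr3:34654042-34654071, plus strand): gggcagcCATTGTGATGCATATaggattat
Pou5f1 (chr17:35504042-35504071, minus strand): tcatgcacCTTTGTTATGCATCTgccgtct

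The Sox2 sequence comes from SRR2, an enhancer downstream of Sox2, and has 1 mismatch. The Pou5f1 sequence comes from CR4, the distal enhancer of Pou5f1, and has 2. Those at Ncam2, Gm6871, Nckap5 and Socs2 have 2 mismatches and those at Galntl6 and Cntnap5b have 3. The peak of Pou5f1 CR4 is the exception among them, as its difference missed the threshold.

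Whole windows of 3 peaks decreased near genes of the pluripotency network are printed next on the forward strand. Capitals mark the OCT-SOX word and the octamer ATGCAAAT, in either direction.

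Utf1 (chr7:139945620-139945819): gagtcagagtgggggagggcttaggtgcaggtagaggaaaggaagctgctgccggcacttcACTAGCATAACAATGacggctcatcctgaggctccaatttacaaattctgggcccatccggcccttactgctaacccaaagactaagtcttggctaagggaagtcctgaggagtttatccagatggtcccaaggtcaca
Dppa3 (chr6:122624562-122624761): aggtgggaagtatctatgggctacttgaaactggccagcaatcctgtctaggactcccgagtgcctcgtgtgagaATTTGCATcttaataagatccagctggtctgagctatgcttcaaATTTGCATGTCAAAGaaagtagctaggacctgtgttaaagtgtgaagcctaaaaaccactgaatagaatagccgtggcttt
Il6st (chr13:112462545-112462744): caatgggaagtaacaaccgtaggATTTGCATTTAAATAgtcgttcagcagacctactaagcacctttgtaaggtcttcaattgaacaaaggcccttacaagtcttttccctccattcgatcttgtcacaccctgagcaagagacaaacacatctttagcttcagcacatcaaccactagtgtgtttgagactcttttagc

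For contrast, the window in an intron of Tbx15 was among the 10 largest decreases and holds neither of these words, and the windows near Galnt15, Fam213a and Tbc1d9 were among the 10 largest increases. Capitals in the last of them mark the GATA word AGATAAG.

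Tbx15 (chr3:99263729-99263928): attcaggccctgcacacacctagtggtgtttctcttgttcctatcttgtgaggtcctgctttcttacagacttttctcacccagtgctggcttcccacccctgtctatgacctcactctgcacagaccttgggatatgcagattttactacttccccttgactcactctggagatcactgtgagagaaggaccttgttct
Galnt15 (chr14:31978809-31979008): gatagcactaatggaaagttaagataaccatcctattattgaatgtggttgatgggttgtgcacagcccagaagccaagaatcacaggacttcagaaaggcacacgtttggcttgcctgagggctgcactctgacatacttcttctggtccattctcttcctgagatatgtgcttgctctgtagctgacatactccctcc
Fam213a (chr14:41010331-41010530): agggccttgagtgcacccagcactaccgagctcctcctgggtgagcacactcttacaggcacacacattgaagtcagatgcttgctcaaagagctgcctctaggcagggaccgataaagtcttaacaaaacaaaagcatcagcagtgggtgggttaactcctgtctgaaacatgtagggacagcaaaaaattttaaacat
Tbc1d9 (chr8:83154211-83154410): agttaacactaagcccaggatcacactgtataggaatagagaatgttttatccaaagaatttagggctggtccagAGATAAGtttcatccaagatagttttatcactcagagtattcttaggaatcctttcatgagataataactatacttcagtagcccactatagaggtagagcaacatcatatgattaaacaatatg

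The targeted gene was looked at first. Of the 7 peaks on Pou5f1 or within 5 kb of it, 2 were decreased and none was increased, against 5.43% and 2.753% of all peaks. The peak over the Pou5f1 start site (chr17:35505888-35506087) had rlog values of 5.46, 5.84, 5.60 and 5.02 in Ctrl replicates 1 to 4 and of 4.56, 5.04, 4.75 and 3.07 in Pou5f1-KO replicates 1 to 4. KO replicate 2 lay above Ctrl replicate 4, so the groups overlapped, and the difference of -1.13 (SE 0.33) passed the test (limma, adjusted p = 0.0152). The other decreased peak lies in an intron of the neighbouring Tcf19 (chr17:35515693-35515892), with a difference of -1.32 (SE 0.40, adjusted p = 0.0231). At CR4 (chr17:35503918-35504117) Ctrl libraries had 6.41, 6.84, 6.81 and 6.52 and KO libraries 6.18, 6.47, 6.10 and 5.70. Its difference of -0.53 (SE 0.21) was not called (adjusted p = 0.104), but was with the replicate number as a block (adjusted p = 0.0296). The window on coding sequence of the gene (chr17:35509358-35509557) had 2.76, 2.14, 1.42 and 3.01 in Ctrl and 1.15, 3.04, 2.14 and 1.11 in KO, which overlap. Without KO replicate 4 or Ctrl replicate 2 the start site peak was no longer called (-0.70 and -1.005), and neither was the Tcf19 peak without Ctrl replicate 2, Ctrl replicate 3 or KO replicate 3 (-1.18, -1.10 and -1.14). The mKO2 allele carries a cassette with a PGK promoter upstream of the Pou5f1 start site and another cassette in the first intron, and the floxed allele loses its later exons. Effects of the edited alleles and of missing Oct4 protein at this locus cannot be told apart, and these peaks are no check of the labels.

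In Pou5f1-KO early ICM 8273 peaks (5.43% of those tested) were less accessible and 4196 (2.753%) more accessible, so 66.4% of the called peaks were decreases. Decreases were also larger. The median difference was -1.62 among decreased and 1.42 among increased peaks, 2083 decreased and 209 increased peaks changed by at least 2 log2 units, and 260 and 1 by at least 3. The median Ctrl rlog was 3.56 at decreased peaks and 2.21 at increased peaks, against 2.48 over all peaks, and the median KO rlog was 1.69 and 3.74. Every KO library lay below every Ctrl library at 6642 of the 8273 decreased peaks, and above at 2887 of the 4196 increased peaks. Over all peaks this was so at 10476 (6.87%) and 6343 (4.16%), so many peaks without overlap were not called. Without Ctrl replicate 2 the increased peaks numbered 2461, and without KO replicate 4 they numbered 2634. With pools of ICMs, fewer cells in which a region is open and less opening per cell cannot be told apart.

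**Figure D1:**
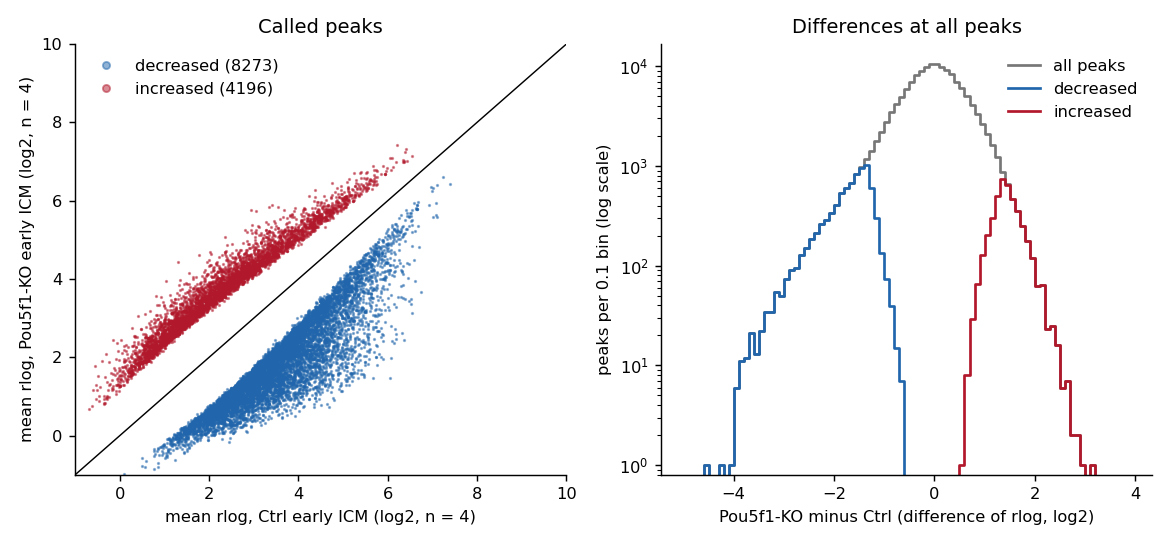
Left, mean rlog (log2, n = 4 libraries) of each called peak in Ctrl (x axis) and Pou5f1-KO (y axis) early ICM, with decreased peaks in blue, increased peaks in red and the line of equality in black. Right, number of peaks per 0.1 bin of the difference on a log axis, where the blue decreased peaks reach below -4 and the red increased peaks hardly pass 3.

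Both sets lay away from promoters. Of decreased peaks 4.16% and of increased peaks 2.46% were within 100 bp of an annotated start site, against 10.6% of all peaks. Of decreased peaks 58.1% were intergenic and 39.1% intronic, of increased peaks 51.6% and 46.3%, and of all peaks 48.7% and 44.5%. The median distance to the nearest start of a protein-coding gene was 25885 bp for decreased, 23411 bp for increased and 16129 bp for all peaks. Calls occurred on every chromosome, in shares from 3.92% (chromosome 19) to 7.13% (chromosome 14) for decreases and from 2.13% (chromosome 11) to 3.71% (chromosome X) for increases. Changes in the same direction lay close together. Where a decreased peak had another peak within 10 kb, the nearest of these was itself decreased in 31.1% of cases and increased in 0.366%, against 5.68% and 2.73% over all peaks. The nearest neighbour of an increased peak was increased in 14.8% of cases and decreased in 0.765%. Neighbours can share insertions of 1 open region, so these shares are a description.

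The largest decreases lay mostly far from start sites. Among called peaks with no overlap between groups, the 10 with the largest decrease had Ctrl means of 4.70 to 6.36 and KO means of 0.734 to 2.44. The largest was an intergenic peak 63536 bp from the nearest start of Galntl6, a gene of the GalNAc-transferase family (chr8:57732954-57733153). Its rlog was 5.95, 5.88, 6.15 and 6.25 in Ctrl replicates 1 to 4 and 1.45, 1.18, 1.02 and 2.23 in KO. All Ctrl libraries stood more than 3 log2 units above every KO library, and the difference was -4.59 (SE 0.39, limma, adjusted p = 4.03e-16). The next was 201658 bp from Cntn5, which codes for the neural adhesion protein contactin 5 (chr9:11106333-11106532). Here Ctrl had 5.94, 5.20, 5.34 and 6.25 and KO had 1.20, 1.80, 1.25 and 1.65, a difference of -4.21 (SE 0.43, adjusted p = 6.61e-13). An intronic peak of Ncam2, for another neural adhesion molecule (chr16:81481138-81481337), had 6.30, 5.90, 5.48 and 6.58 in Ctrl against 1.53, 2.30, 1.09 and 3.05 in KO. Its difference was -4.07 (SE 0.45, adjusted p = 1.06e-11), and KO replicate 4 was the highest of the KO libraries.

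Another 6 had differences between -3.97 and -3.92. They lay near Gm6871 (chr7:41582154-41582353, -3.97), Pcdh10, a protocadherin gene (chr3:45117369-45117568, -3.96), Cntnap5b (chr1:100878159-100878358, -3.96), Nckap5 (chr1:126151091-126151290, -3.96), Tbx15, a T-box factor gene (chr3:99263729-99263928, -3.93), and Socs2, an inhibitor of cytokine signalling (chr10:95456261-95456460, -3.92). At Gm6871 the KO libraries had 1.31, 1.06, 1.33 and 3.47, so that replicate 4 stood apart, though below the lowest Ctrl value of 5.32. Of the 10, 6 were over 100 kb from a start of a protein-coding gene, against 20.3% of decreased peaks and 12.1% of all peaks. An OCT-SOX word with at most 3 mismatches was in 9 of the 10 (against 6.80% of all peaks), and with at most 2 in 4 (1.19% of all). All 10 were also called lower in late ICM, 8 in Sox2-KO early ICM and 3 in late morula, against 10.1%, 1.91% and 0.539% of all peaks.

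The 2 of these peaks not called lower in Sox2-KO early ICM were those of Tbx15 and Nckap5. The Tbx15 window, whose best OCT-SOX match has 5 mismatches, had 6.15, 5.41, 5.34 and 4.98 in Ctrl and 1.63, 1.35, 1.18 and 2.00 in KO, with no overlap. The Sox2-KO difference there was 0.18 (adjusted p = 0.908), at Nckap5 it was -0.78 (adjusted p = 0.385), and at Tbx15 the difference between the Pou5f1-KO and Sox2-KO effects was -4.11 (adjusted p = 2.19e-08).

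**Figure D2:**
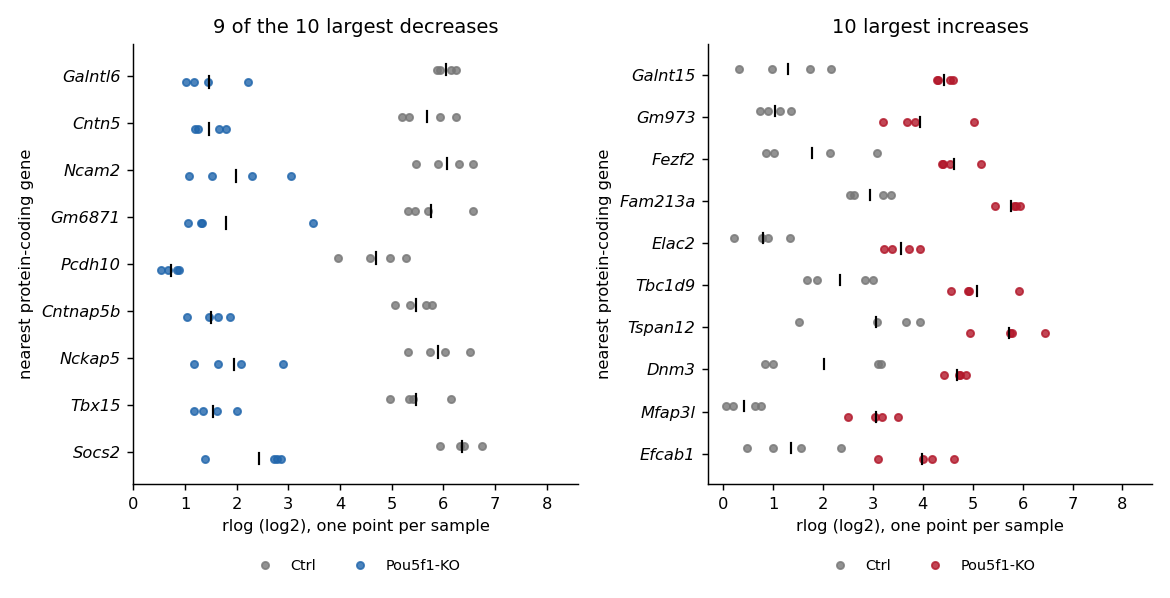
Rlog (log2, x axis) of each Ctrl library (grey) and Pou5f1-KO library (blue or red) at 9 of the 10 largest decreases (left) and the 10 largest increases (right), labelled by the nearest protein-coding gene, with group means as black ticks. No Ctrl point overlaps the KO points of its peak, which was required for the selection, and the gaps are wider on the left.

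The increases were smaller and came from low values. The 10 largest had Ctrl means of 0.415 to 3.05 and KO means of 3.06 to 5.77. The largest was an intergenic peak 50080 bp from the start of Galnt15, another GalNAc-transferase gene (chr14:31978809-31979008). Ctrl replicates 1 to 4 had 0.987, 0.309, 1.73 and 2.16 and KO replicates 4.31, 4.54, 4.28 and 4.61. The Ctrl libraries spread widely and the KO libraries did not, and the difference was 3.14 (SE 0.45, limma, adjusted p = 6.28e-08). At an intronic peak 2165 bp from a start of Fam213a, for a peroxiredoxin-like protein (chr14:41010331-41010530), Ctrl had 3.37, 2.63, 3.21 and 2.55 and KO had 5.83, 5.44, 5.86 and 5.94. This was the most accessible of the 10 in KO, with a difference of 2.83 (SE 0.35, adjusted p = 5.26e-10). A peak 11041 bp from Tbc1d9 (chr8:83154211-83154410) had 3.01, 1.68, 1.87 and 2.84 in Ctrl and 4.57, 4.93, 4.90 and 5.93 in KO, a difference of 2.73 (SE 0.44, adjusted p = 1.98e-06).

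The other 7 lay near Gm973 (chr1:59578913-59579112, 2.90), Fezf2, a zinc finger factor of the forebrain (chr14:12333779-12333978, 2.85), Elac2, a tRNA-processing nuclease (chr11:64827585-64827784, 2.76), Tspan12, a tetraspanin (chr6:21891735-21891934, 2.68), Dnm3, a dynamin (chr1:162244545-162244744, 2.67), Mfap3l (chr8:60655129-60655328, 2.64) and Efcab1 (chr16:14870132-14870331, 2.62). None of the 10 held an OCT-SOX word with at most 3 mismatches, against 6.80% of all peaks. The GATA word was in 3 (Tbc1d9, Mfap3l, Efcab1), against 7.71% of all, and the TEAD word in 1 (Tspan12), against 7.53%. Among 10 peaks, none with the OCT-SOX word and 1 with the TEAD word are near these shares. Of the 10, 9 were called higher in late ICM too (against 8.19% of all peaks). None was in Sox2-KO early ICM or in late morula, where 0.238% and 0.108% of all peaks were. In the Ctrl embryos 7 of the 10 were less accessible in late ICM than in morula by the test (against 18.7% of all peaks), and none was more accessible (against 21.9%).

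Peaks were then assigned to the protein-coding gene with the nearest start site within 100 kb. Of 18163 genes with a peak, 3821 had at least 1 decreased peak, 2586 at least 1 increased peak and 662 both. At least 5 decreased peaks fell to 163 genes and at least 5 increased peaks to 27. Over all peaks 5.43% were decreased and 2.753% increased. Most decreases lay around Etl4, with 16 of its 77 peaks decreased and 3 increased. Next came Col14a1, for a fibril-associated collagen, with 14 of 36, Rnf125, for a ubiquitin ligase, with 14 of 25, and Tmem17, for a membrane protein of the cilium, with 14 of 30. Epha4, an ephrin receptor gene, had 13 of 37, and Reep3 had 12 of 41, with 1 increased. The decreased peaks of Col14a1 differed by -3.08 to -1.02 and those of Rnf125 by -3.14 to -0.92. No peak of Col14a1, Rnf125, Tmem17 or Epha4 was increased. Most increases lay around Fry, with 10 of 56 peaks increased by 1.29 to 1.97 and none decreased. Iqsec1, for an activator of ARF GTPases, had 9 of 57, with 3 decreased. Dapk1, for death-associated protein kinase 1, had 8 of 28 increased by 1.24 to 2.30 and none decreased. Lmo7 had 8 of 41, with 1 decreased. Nabp1 followed with 6 of 36 and none decreased, and Tmcc3 with 5 of 28 and 1 decreased. Genes with large intergenic surroundings collect more peaks, so these counts are given beside the number of peaks and not ranked by share.

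The OCT-SOX word followed the decrease closely, and it is independent of the readout. With at most 2 mismatches it was in 10.2% of decreased peaks, 0.215% of increased peaks and 1.19% of all peaks, and with at most 3 in 32.4%, 4.10% and 6.80%. The better the match, the more often a peak was decreased. Of the 14 peaks with a perfect word 71.4% were decreased, of 247 with 1 mismatch 66.8%, of 1548 with 2 mismatches 43.3%, of 8560 with 3 mismatches 21.4%, of 38034 with 4 mismatches 6.38% and of 78492 with 5 mismatches 3.247%, against 5.43% of all peaks. The median difference went from -1.63 and -1.58 at 0 and 1 mismatches through -1.07 and -0.37 to -0.02 and 0.03 at 4 and 5. None of the peaks with 0 or 1 mismatches was increased. At the 247 peaks with 1 mismatch the mean rlog was 3.10, 3.19, 3.02 and 3.496 in the Ctrl libraries and 1.59, 1.61, 1.503 and 1.77 in the KO libraries, without overlap of these means. The word with at most 2 mismatches lay a median of 31.5 bp from the window centre in decreased peaks and 42.5 bp in peaks that were not called. Still, 955 of the 1809 peaks with such a word were not called, and only 2678 of the 8273 decreased peaks had a word with up to 3 mismatches.

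Other words were searched on both strands as exact letters. The octamer alone (ATGCAAAT) was in 9.48% of decreased, 0.667% of increased and 2.39% of all peaks, and the SOX word (CCNTTGT) in 17.9%, 12.5% and 11.7%. Both can overlap the OCT-SOX word. The word for GATA factors, AGATAAG, went the other way, with 6.09%, 19.6% and 7.71%. So did the word for TEAD factors, ACATTCC, with 7.06%, 14.4% and 7.53%. EOMES (AGGTGTGA) was in 1.40%, 4.46% and 2.62%. The KLF word (GGGNGTGG) was rarer in decreased peaks, with 14.8% against 21.0% and 20.6%. The words for ESRRB (TCAAGGTCA), TFAP2 (GCCTNAGGC), CDX (TTTATNG) and AP-1 (TGAGTCA) were in 3.72%, 1.98%, 9.22% and 7.35% of decreased peaks, 3.19%, 1.69%, 6.94% and 5.55% of increased peaks, and 3.39%, 1.92%, 9.23% and 5.92% of all peaks. CTCF (AGGGGGCGC) was in 0.145%, 0.0715% and 0.657%. Of the 1023 peaks that held both the GATA and the TEAD word 10.1% were increased, against 6.71% with GATA alone, 4.78% with TEAD alone and 2.21% with neither. A word is a match of letters and not evidence that a factor was bound.

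**Figure D3:**
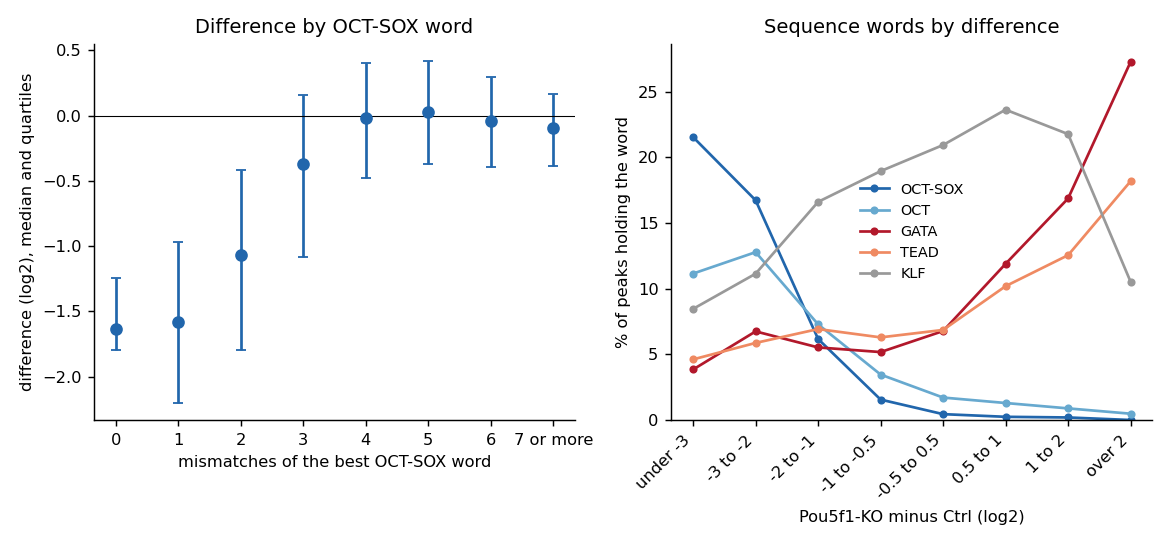
Left, median (point) and quartiles (bars) of the difference in early ICM, in log2 units, for peaks grouped by the fewest mismatches of an OCT-SOX word. Right, percent of peaks with each word by bin of the difference: OCT-SOX with at most 2 mismatches falls from 21.5% in the bin under -3 to 0% in the bin over 2, and GATA rises from 3.85% to 27.3%.

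A stretch of sequence recurred among the largest decreases. An identical run of 28 bases is in 3 of these windows, among them those near Cntn5 and Pcdh10. This was noticed after the values were seen, and the counts that follow are a description. The run was in 62 peaks on 18 chromosomes. The run itself contains an OCT-SOX word with 3 mismatches, so all 62 peaks hold one by construction. Of the 62, 55 were decreased, none was increased, and all 62 had a negative difference, with a median of -2.31. Without the 3 peaks in which it was noticed, 52 of 59 were decreased (88.1%, against 5.43% of all peaks). Over the 62 peaks the Ctrl libraries had means of 3.48, 3.09, 3.06 and 3.95 and the KO libraries 0.986, 1.10, 0.823 and 1.42. Of the 59, 57 were also called lower in late ICM (against 10.1% of all peaks), 39 in Sox2-KO early ICM (1.91% of all) and 3 in late morula (0.539% of all). In all, 53 of the 62 were intergenic and none was within 1 kb of a start site. No repeat annotation was used, and the authors kept uniquely mapped reads.

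The libraries outside the 8 compared gave the following. They are not fully independent of the calls, since rlog was computed and variances were fitted over all 44 libraries together. In late ICM the decreased peaks had a median Pou5f1-KO difference of -1.70, and 74.2% of them were called lower, against 10.1% of all peaks. The increased peaks had a median of 1.16, and 56.1% were called higher, against 8.19%. In late morula, before the ICM forms, the medians were -0.41 and 0.20, and 5.91% of decreased peaks were called lower, against 0.539% of all, while 0.286% of increased peaks were called higher, against 0.108%. Seen from the other side, 489 of the 822 peaks lower in late morula (59.5%) were decreased in early ICM, and 6137 of the 15404 lower in late ICM (39.8%). In Sox2-KO early ICM the medians were -0.65 and 0.15. Of decreased peaks 21.2% were called lower, against 1.91% of all, and these 1753 peaks were 60.1% of the 2917 lower in Sox2-KO. Of increased peaks 38 (0.906%) were called higher, against 0.238% of all, and they were 10.5% of the 363 higher in Sox2-KO.

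The called peaks also differed between Ctrl stages. From Ctrl morula to Ctrl late ICM the decreased peaks had a median change of 1.36 and 60.5% gained accessibility, against 21.9% of all peaks, while the increased peaks had a median of -0.82 and 43.5% lost it, against 18.7%. Morulae had no inhibitor and were whole embryos, so stage, culture and isolation cannot be told apart in this change. Averaged over the decreased peaks, rlog was 2.35 ± 0.06 (SD, n = 3) in Ctrl morula, 2.15 ± 0.12 (n = 3) in Ctrl late morula, 3.61 ± 0.14 (n = 4) in Ctrl early ICM and 3.64 ± 0.07 (n = 4) in Ctrl late ICM. In Pou5f1-KO it was 1.94 ± 0.315 (n = 3, libraries from 1.67 to 2.29) in morula, 1.66 ± 0.06 (n = 3) in late morula, 1.85 ± 0.08 (n = 4) in early ICM and 1.93 ± 0.09 (n = 4) in late ICM. The Ctrl means thus stood at 2.35 or below in morulae and above 3.5 in ICMs, and the KO means were under 2 at all 4 stages, with 1 morula library at 2.29. Sox2-KO early ICM was in between, at 2.61 ± 0.04 (n = 4), with 3.35 ± 0.04 (n = 4) in its own Ctrl. Over the increased peaks Ctrl morula had 3.17 ± 0.13, Ctrl late morula 3.21 ± 0.03, Ctrl early ICM 2.34 ± 0.13 and Pou5f1-KO early ICM 3.79 ± 0.17. The early ICM libraries of the Pou5f1 line chose these peaks, so their own means are a description.

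**Figure D4:**
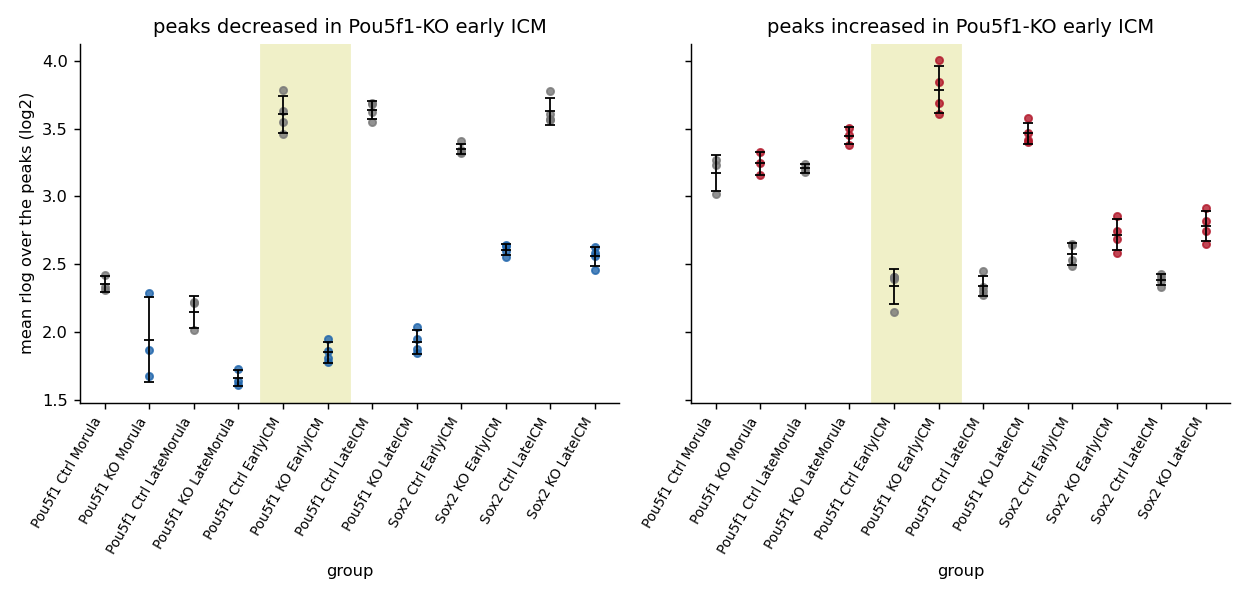
Mean rlog (log2, y axis) over the peaks decreased (left) and increased (right) in Pou5f1-KO early ICM, in each of the 44 libraries (points; KO coloured, Ctrl grey) by group, with the group mean ± SD in black; shading marks the 8 libraries that chose the peaks. At the decreased peaks Ctrl rises from 2.15 in late morula to 3.61 in early ICM while the Pou5f1-KO group means are below 2 at all 4 stages, and Sox2-KO is in between at 2.61.

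Whether the effect differed between stages or knockouts was tested directly. Compared with late morula, the Pou5f1-KO effect was more negative in early ICM at 444 peaks (0.291%) and more positive at 84 (0.0551%). Compared with Sox2-KO, it was more negative at 567 (0.372%) and more positive at 469 (0.308%). These contrasts contain the early ICM libraries that gave the calls. They also depended on the handling of libraries: with the replicate number as a block they gave 1053, 408, 1476 and 1287 peaks, and without Ctrl replicate 4 the first was 166. The peak 1425 bp upstream of Il6st had a difference of -3.72 in early ICM and -0.15 in late morula, a change of -3.57 (adjusted p = 0.00242). That near Cntn5 had a change of -3.29 (adjusted p = 0.00749). In contrast, the peak near Socs2 was already lower in late morula (-2.54, adjusted p = 3.34e-05), as was that in an intron of Gdf3 (-2.32, adjusted p = 0.000471). The Il6st and Cntn5 peaks rose by 4.03 and 3.45 from Ctrl morula to Ctrl late ICM. Those near Socs2 and Gdf3 rose by 0.65 and 1.10. Whether a lower Ctrl level in morulae limits the effect at Il6st and Cntn5 there was not tested.

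Gene lists are described by the peaks on or within 10 kb of their genes, and each gene is shown by the peak with the smallest adjusted p, so the peaks shown were selected for their change. Some genes are on more than 1 list, and their peaks are counted in each. Around genes of naive and core pluripotency, accessibility was lost at many sites. Of 395 peaks on or within 10 kb of 36 listed genes, 55 (13.9%, against 5.43% of all peaks) were decreased and 2 (0.506%, against 2.753%) increased, with a median difference of -0.34 against -0.02 over all peaks. At an enhancer downstream of Utf1, whose product binds chromatin in undifferentiated cells (chr7:139945620-139945819), Ctrl had 5.41, 5.41, 5.20 and 4.85 and KO had 1.37, 1.56, 1.73 and 1.33. The KO libraries lay close together and far below Ctrl, with a difference of -3.72 (SE 0.38, limma, adjusted p = 6.09e-13), and 4 of 12 peaks of Utf1 were decreased. The peak 1748 bp upstream of Dppa3, for the maternal factor Stella (chr6:122624562-122624761), had 5.35, 5.19, 4.82 and 4.88 in Ctrl and 1.47, 1.64, 1.05 and 1.42 in KO, a difference of -3.66 (SE 0.39, adjusted p = 3.01e-12). Both windows are printed above with their words. In an intron of Pecam1, a surface marker of the ICM (chr11:106724459-106724658), Ctrl had 4.97, 5.23, 5.28 and 5.53 and KO had 1.33, 3.43, 1.35 and 2.45, a difference of -3.11 (SE 0.42, adjusted p = 1.17e-08). KO replicates 2 and 4 kept more accessibility than 1 and 3 there. Near Dppa5a, for an RNA-binding protein of pluripotent cells (chr9:78364851-78365050), the difference was -2.93 (SE 0.39, adjusted p = 4.93e-09).

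The enhancers that the study lists by position did not all respond. SRR2 of Sox2 (chr3:34653965-34654164) had 2.23, 3.22, 3.89 and 4.15 in Ctrl and 0.913, 1.21, 1.06 and 2.45 in KO. KO replicate 4 lay above Ctrl replicate 1, and the difference was -1.97 (SE 0.43, adjusted p = 0.000696). The Klf4 enhancer 54151 bp from the Klf4 start (chr4:55477519-55477718) had 5.52, 5.67, 5.48 and 6.27 in Ctrl and 3.89, 4.19, 2.85 and 4.26 in KO, a difference of -1.94 (SE 0.33, adjusted p = 7.06e-06). The proximal enhancer of Nanog, over its start (chr6:122707420-122707619), was decreased by -1.21 (SE 0.33, adjusted p = 0.00806), with KO replicate 2 at 5.08, among the Ctrl values of 4.80 to 5.64. Without Ctrl replicate 3, KO replicate 1 or KO replicate 3 this call was lost, at -1.04, -0.99 and -1.03. By contrast, the distal enhancer of Nanog (chr6:122702565-122702764) had 6.80, 6.79, 7.21 and 6.70 in Ctrl and 6.86, 7.07, 7.03 and 7.09 in KO, a difference of 0.14 (SE 0.17, adjusted p = 0.733). The Klf2 enhancer (chr8:72334361-72334560) had a difference of -0.58 (SE 0.38, adjusted p = 0.405), and another Klf2 peak (chr8:72326570-72326769) 0.30 (SE 0.24, adjusted p = 0.529). The element at the Prdm14 start (chr1:13127093-13127292) was decreased by -1.53 (SE 0.45, adjusted p = 0.0189), and that 1053 bp upstream by -1.82 (SE 0.41, adjusted p = 0.000851). The first of these lost its call without Ctrl replicate 2, Ctrl replicate 4, KO replicate 1 or KO replicate 4, at -1.44 to -1.33, and the other kept it. Esrrb, an orphan nuclear receptor gene of naive cells, had 9 of 36 peaks decreased, and the one with the smallest p (chr12:86455164-86455363) fell from 5.64 ± 0.31 to 3.72 ± 0.20 (SD, n = 4 each), while the Sox2-KO difference there was 0.06 (adjusted p = 0.971).

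**Figure D5:**
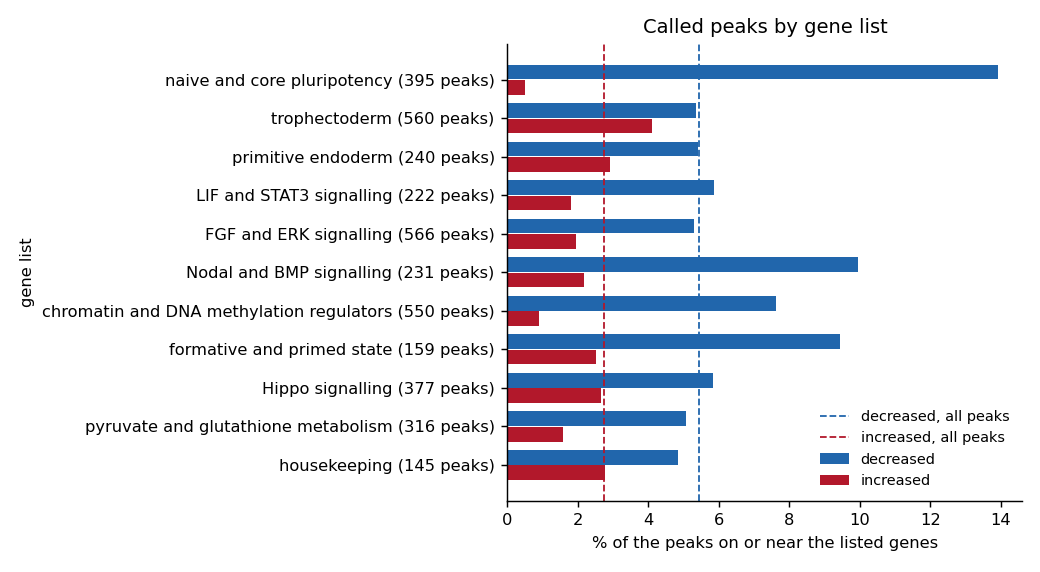
Percent of peaks on or within 10 kb of listed genes that were decreased (blue bars) or increased (red bars) in Pou5f1-KO early ICM, with the number of peaks of each list, and the percent over all peaks as dashed lines in the same colours. The naive and core pluripotency list reaches 13.9% decreased and 0.506% increased, against 5.43% and 2.753% over all peaks.

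LIF signals through the receptor subunits Lifr and Il6st to JAK kinases and STAT3. Of 222 peaks of 24 genes of this pathway, 13 (5.86%) were decreased and 4 (1.80%) increased, close to the 5.43% and 2.753% of all peaks. The peak upstream of Il6st, for gp130 (chr13:112462545-112462744), had 4.82, 4.51, 3.92 and 4.78 in Ctrl and 0.808, 1.12, 0.460 and 0.768 in KO, a difference of -3.72 (SE 0.43, adjusted p = 9.11e-11), and 2 of 10 Il6st peaks were decreased. An intronic peak of Lifr (chr15:7115432-7115631) was decreased by -2.002 (SE 0.40, adjusted p = 0.000128), and 4 of 19 Lifr peaks were. In an intron of Jak2 (chr19:29285628-29285827) the difference was -2.46 (SE 0.46, adjusted p = 3.9e-05), with Ctrl replicate 3 at 1.99 and the other Ctrl libraries at 3.83 to 4.02. An intronic peak of Stat3 itself (chr11:100906401-100906600) went up by 1.59 (SE 0.36, adjusted p = 0.00122).

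FGF4 from the epiblast signals through FGFR1 and FGFR2 to ERK, which the inhibitor blocked in both groups. The FGF and ERK list had 30 decreased (5.30%, against 5.43% of all peaks) and 11 increased (1.94%, against 2.753%) of 566 peaks in 33 genes. GENCODE gives Fgfr2 a span that runs over several neighbouring genes. With RefSeq gene spans, chosen after seeing the data, the counts were 20 (6.58%) and 2 (0.658%) of 304. In an intron of Etv1, for an ETS factor downstream of ERK (chr12:38784344-38784543), Ctrl had 3.06, 3.24, 3.05 and 3.40 and KO had 0.559, 0.375, 0.260 and 1.58, a difference of -2.50 (SE 0.41, adjusted p = 3.62e-06), and 4 of 6 Etv1 peaks were decreased. At Fgf4 itself (chr7:144858007-144858206) the difference was -2.41 (SE 0.42, adjusted p = 1.06e-05), against 0.58 in late morula, and the change between the stages was -2.98 (adjusted p = 0.0121). At the related Etv5 (chr16:22411833-22412032) it was -2.22 (SE 0.38, adjusted p = 7.02e-06). The largest increase within the GENCODE span of Fgfr2 (chr7:130824047-130824246) lies 41609 bp from the start of Plekha1, so it is not assigned to Fgfr2 here. It had 2.47, 0.947, 1.91 and 0.892 in Ctrl and 4.19, 3.90, 4.03 and 4.51 in KO, a difference of 2.60 (SE 0.41, adjusted p = 1.19e-06). Within the RefSeq span 2 of 26 Fgfr2 peaks were increased and none decreased. The one with the smaller p (chr7:130192984-130193183) had 5.88, 5.76, 5.32 and 5.62 against 6.24, 6.67, 5.82 and 6.51, a difference of 0.67 (SE 0.22, adjusted p = 0.0367), and KO replicate 3 lay among the Ctrl values. It was called only by a narrow margin, and without any 1 of 6 libraries (all but Ctrl replicate 1 and KO replicate 3) it was not, at 0.55 to 0.70.

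Nodal-type ligands need convertases and the co-receptor Cripto, and signal to SMAD2, SMAD3 and SMAD4, while BMPs use SMAD1. Of 231 peaks of 29 Nodal and BMP genes, 23 (9.96%, against 5.43% of all peaks) were decreased and 5 (2.17%, against 2.753%) increased. Bmp4, Gdf3 and Tdgf1 are also on the naive list and held 8 of the 23 decreases, and without them 15 of 214 peaks were decreased (7.01%). In an intron of Gdf3, for a TGF-beta family ligand (chr6:122608518-122608717), Ctrl had 5.03, 4.98, 4.97 and 5.32 and KO had 2.41, 2.99, 2.16 and 2.35, a difference of -2.60 (SE 0.37, adjusted p = 6.2e-08), and 4 of 5 Gdf3 peaks were decreased. Upstream of Tdgf1, for Cripto (chr9:110947360-110947559), it was -1.87 (SE 0.41, adjusted p = 0.00065), and upstream of Skil, for the SMAD co-repressor SnoN (chr3:31089421-31089620), -1.90 (SE 0.41, adjusted p = 0.000562). A strong intronic peak of Pcsk6, a convertase gene (chr7:65873661-65873860), fell from 7.39 ± 0.20 to 6.42 ± 0.41 (SD, n = 4 each), a difference of -0.97 (SE 0.17, adjusted p = 1.82e-05). The peak upstream of Smad4 (73708289-73708488 of chromosome 18) went the other way, with 2.50, 2.97, 3.58 and 4.05 in Ctrl and 4.82, 5.17, 5.45 and 5.53 in KO, a difference of 1.97 (SE 0.41, adjusted p = 0.000268).

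Regulators of chromatin and DNA methylation had 42 decreased (7.64%, against 5.43% of all peaks) and 5 increased (0.909%, against 2.753%) of 550 peaks in 40 genes. Upstream of Zfp57, which keeps imprints methylated (chr17:36997471-36997670), Ctrl had 5.09, 5.20, 5.27 and 5.02 and KO had 2.749, 2.13, 2.63 and 2.40. Both groups were tight, and the difference was -2.67 (SE 0.35, adjusted p = 3.72e-09), with 4 of 9 peaks decreased. In an intron of Ehmt1, for the H3K9 methyltransferase GLP (chr2:24912207-24912406), it was -2.60 (SE 0.41, adjusted p = 9.79e-07), in an intron of Tet3, for a 5-methylcytosine oxidase (chr6:83422083-83422282), -2.30 (SE 0.36, adjusted p = 6.34e-07), and upstream of Sap30, for a subunit of the Sin3 deacetylase complex (chr8:57489488-57489687), -2.31 (SE 0.38, adjusted p = 2.41e-06). The peak within 10 kb of Uhrf1, for the partner of maintenance methylation, is nearest to the start of Arrdc5 (chr17:56300754-56300953). Its difference was -2.43 (SE 0.45, adjusted p = 3.2e-05).

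Genes of the formative and primed state, which follows the naive state, had 15 decreased (9.43%, against 5.43% of all peaks) and 4 increased (2.52%, against 2.753%) of 159 peaks. Without Etv5, which is also on the naive list, 11 of 141 were decreased (7.80%). The decreases included an intronic peak of Tcf7l1, for a repressor of Wnt targets (chr6:72758436-72758635), at -2.16 (SE 0.40, adjusted p = 3.65e-05), a peak at the start of the Wnt antagonist Sfrp1 (chr8:23411337-23411536), at -1.58 (SE 0.36, adjusted p = 0.00129), and a peak near Pim2 in an intron of Otud5 (chrX:7869987-7870186), at -1.86 (SE 0.43, adjusted p = 0.00121). KO replicate 2 at Sfrp1, with 4.99, lay above the lowest Ctrl value of 4.87. Among the increases, named after their values were seen, were a peak of Fgf5, a marker of the formative epiblast (1.501, adjusted p = 0.00864), and one of Dnmt3b, for a de novo DNA methyltransferase (1.925, adjusted p = 0.00233), and Tcf7l1 had 2 increased peaks beside 2 decreased ones.

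Hippo signalling restrains YAP and TAZ, which act with TEAD factors in outer cells. Of 377 peaks of 23 genes, 22 (5.84%) were decreased and 10 (2.65%) increased, near the 5.43% and 2.753% of all peaks. A peak close to the start of the kinase gene Lats2 (chr14:57732743-57732942) had 4.09, 4.56, 4.07 and 2.84 in Ctrl and 1.76, 1.48, 0.873 and 1.22 in KO, a difference of -2.56 (SE 0.41, adjusted p = 2.08e-06). Intronic peaks of Tead4 (chr6:128237587-128237786) and Tead1 (chr7:112688417-112688616) were decreased by -2.28 (SE 0.41, adjusted p = 1.95e-05) and -2.25 (SE 0.40, adjusted p = 1.76e-05). Upstream of Wwtr1, for TAZ (chr3:57583630-57583829), the difference was -1.76 (SE 0.26, adjusted p = 1.96e-07) in early ICM and -0.19 (adjusted p = 0.673) in late ICM. Of the genes of pyruvate and glutathione metabolism 16 of 316 peaks (5.06%, against 5.43% of all peaks) were decreased and 5 (1.58%, against 2.753%) increased. Decreases there included a peak near Pdhb, for pyruvate dehydrogenase (chr14:8174696-8174895, -2.30), Pck2, for mitochondrial PEP carboxykinase (chr14:55551432-55551631, -2.46), Gstm2, for a glutathione transferase (chr3:107996032-107996231, -2.75), and the start of the hexokinase gene Hk2 (chr6:82772884-82773083, -1.86), with adjusted p of 1.1e-06, 2.84e-05, 1.35e-06 and 0.000173.

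Of 560 peaks of 31 trophectoderm genes, 30 (5.36%, against 5.43% of all peaks) were decreased and 23 (4.11%, against 2.753%) increased, and with RefSeq spans 19 (6.11%) and 14 (4.502%) of 311. The mean rlog over the listed peaks was 2.95 to 3.10 in the Ctrl and 2.94 to 3.09 in the KO libraries. Of the defining markers, the peak of Cdx2 (chr5:147313390-147313589) had 5.39, 5.67, 5.41 and 4.19 in Ctrl and 3.33, 3.43, 3.65 and 2.84 in KO, a decrease of -1.85 (SE 0.30, adjusted p = 1.82e-06). An intronic peak of Gata3 (chr2:9860236-9860435) had 4.79, 5.23, 4.77 and 5.17 in Ctrl and 6.03, 5.41, 5.83 and 5.95 in KO, an increase of 0.81 (SE 0.25, adjusted p = 0.0265). Upstream of Krt18, a keratin gene of simple epithelia (chr15:102025686-102025885), the increase was 0.98 (SE 0.33, adjusted p = 0.0495), at the edge of the threshold. At its partner Krt8 (chr15:102000075-102000274) the difference was -1.25 (SE 0.46, adjusted p = 0.0767, and 0.0299 with the replicate number as a block), and at Eomes (chr9:118479527-118479726) -0.30 (SE 0.43, adjusted p = 0.771). The Krt18 call was lost without any 1 of the libraries other than Ctrl replicate 4, at 0.82 to 1.08, and the Gata3 call without Ctrl replicate 1, Ctrl replicate 3 or KO replicate 1, 3 or 4, at 0.74 to 0.80. The Krt8 peak was called without Ctrl replicate 4 (-1.70) or KO replicate 3 (-1.51). Peaks near Satb1 (chr17:51839544-51839743) and Tfap2c (chr2:172544718-172544917) were decreased by -2.34 (SE 0.38, adjusted p = 1.65e-06) and -2.32 (SE 0.41, adjusted p = 1.78e-05). Larger increases than those of Gata3 and Krt18, named after their values were seen, were at Lrp2, for the endocytic receptor megalin (2.085, adjusted p = 0.000385, 3 peaks increased and 1 decreased), Plac1 (1.88, adjusted p = 0.000206), Atp1b1, for a subunit of the sodium pump (1.72, adjusted p = 0.00349), and Dab2, for an endocytic adaptor (1.35, adjusted p = 0.0191, 2 peaks increased). The span of Fgfr2 held 11 of the 23 increases and 10 of the 30 decreases. Whether trophectoderm cells left after immunosurgery take part in the increases was not tested.

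Primitive endoderm genes had 13 decreased (5.42%, against 5.43% of all peaks) and 7 increased (2.92%, against 2.753%) of 240 peaks in 26 genes, and their mean rlog was 2.82 to 2.84 in Ctrl and 2.71 to 2.92 in KO. Among the defining markers, peaks of Sox7 (chr14:63936624-63936823), Pdgfra (chr5:75147162-75147361) and Sox17 (chr1:4492553-4492752) were decreased by -2.41 (SE 0.42, adjusted p = 1.31e-05), -1.79 (SE 0.39, adjusted p = 0.000632) and -1.32 (SE 0.45, adjusted p = 0.0473). The Sox17 call was lost without any 1 library other than Ctrl replicate 1, at -1.37 to -1.14. At Sox7 Ctrl had 4.61, 4.75, 4.59 and 4.58 and KO had 2.84, 2.25, 1.01 and 2.77. The peaks of Gata4 and Gata6 were not called, with differences of 0.78 (SE 0.46, adjusted p = 0.335) and 0.35 (SE 0.24, adjusted p = 0.459). An intronic peak of the laminin gene Lamc1 (chr1:153326831-153327030) was decreased by -2.04 (SE 0.42, adjusted p = 0.000215), and a peak in the retinol receptor gene Stra6, nearest to the start of Ccdc33 (chr9:58120541-58120740), was increased by 1.87 (SE 0.43, adjusted p = 0.00114).

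Housekeeping genes, taken as a reference list, had 7 decreased (4.83%, against 5.43% of all peaks) and 4 increased (2.76%, against 2.753%) of 145 peaks. The peak at the start of Pgk1, for a glycolytic kinase (chrX:106186842-106187041), had 6.18, 6.16, 6.17 and 5.84 in Ctrl and 6.76, 7.89, 7.09 and 6.66 in KO, an increase of 1.01 (SE 0.25, adjusted p = 0.00248). It was also called higher in late ICM (0.84) and in Sox2-KO early ICM (1.17), and its difference in late morula was 0.48 (adjusted p = 0.7). The KO alleles of both lines carry a reporter driven by a mouse PGK promoter, and reads of that promoter and of Pgk1 itself cannot be told apart. Upstream of Actb (chr5:142911741-142911940) and in an intron of Rab7 (chr6:88019415-88019614) the decreases were -1.40 (SE 0.37, adjusted p = 0.00722) and -1.44 (SE 0.37, adjusted p = 0.00431), and the Actb groups overlapped. These calls were lost without Ctrl replicate 2 or KO replicate 1 (-1.21 and -0.97) at Actb, without KO replicate 4 (-1.06) at Rab7 and without KO replicate 2 (0.75) at Pgk1. A peak within 10 kb of Snrpd3, in an intron of Gucd1 (chr10:75513579-75513778), was increased by 1.51 (SE 0.38, adjusted p = 0.00448).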

How the data were processed

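ATAC-seq was measured in 44 libraries of mouse embryos, of which 8, the Pou5f1-KO and Ctrl early ICMs, form the main comparison. The deposited values are log2 values: the authors trimmed the reads, aligned them to mm10 with Bowtie2, discarded duplicates (Picard) and reads without a unique position, moved the rest to the Tn5 insertion sites, called peaks with MACS2, counted insertions in windows of 200 bp at merged summits, and transformed the counts of all libraries together with the regularised logarithm (rlog) of DESeq2. Counts are lost in this step, so no count model, interval or detection limit was used and depth is unknown.

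Each peak was fitted in limma 3.58.1 (R 4.3.3) with a mean for each of 12 groups over all 44 libraries and moderated variances with a trend, and p-values were adjusted by Benjamini-Hochberg over 152393 peaks with a threshold of 0.05. The procedure was tested on simulated data. Peaks were annotated in Python 3.11.15 with a GENCODE annotation of GRCm38 (vM21 protein-coding genes and transcripts), and RefSeq gene spans served as an alternative chosen after seeing the data. Sequences came from the GRCm38 reference. The labels give KO and Ctrl libraries the same replicate numbers. In early ICM the deviations of same-numbered KO and Ctrl libraries from their group means correlated by 0.151, 0.141, 0.121 and 0.162 over peaks, and for every library this was the highest correlation, so the numbers were taken to pair the samples and a replicate block was fitted as an alternative. Nothing says that the pools are independent litters, and p-values measure only the spread between these libraries.

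Genes named are the 10 largest decreases and increases among called peaks without overlap between groups, the 6 genes with the most called peaks in each direction, up to 4 genes per list by smallest adjusted p, defining markers, enhancers and genes that the study points out, and the targeted gene. Of the 10 largest decreases 1 is not reported here by itself. Members and lists were chosen with earlier results of these data known. Alternatives were quantile normalization, only the compared libraries, a minimum level, a minimum size, another variance model, the block, and leaving out each library. Group means made by the authors were not used.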

Additional observations from a re-analysis of the deposited data

Results flagged for a closer look

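Of the 182 groups of 4 libraries examined, 11 held a library far from the other 3 (Dixon's test), and chance alone flags about 5% of groups. In Ctrl these were replicate 2 at Sox7 (4.75), Pcsk6 (7.68) and the intronic Pou5f1 peak (3.07), replicate 1 at the peak near Uhrf1 and Arrdc5 (3.10), replicate 3 at Jak2 (1.99), and replicate 4 at Hk2 (4.63) and Pgk1 (5.84). In Pou5f1-KO they were replicate 3 at Socs2 (1.38, with 2.72 to 2.85 in the others) and replicate 4 at Gstm2 (1.88) and Gm6871 (3.47, with 1.06 to 1.33 in the others). The mean over increased peaks was 2.15 in Ctrl replicate 2 and 2.39 to 2.41 in the other Ctrl libraries.

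The Pou5f1-KO effect differed between early ICM and late morula at 14 of the 88 named peaks reported here (limma, adjusted p under 0.05), while of all peaks 0.291% were more negative and 0.0551% more positive. Many of the 88 were chosen for their early ICM difference, which is part of this contrast and of the next, so the counts are a description. It was more negative in early ICM near Il6st (-3.57), Cntn5 (-3.29), Galntl6 (-3.18), Pcdh10 (-3.13), Ncam2 (-2.99), Fgf4 (-2.98), Utf1 (-2.65), Tead4 (-2.54), Cntnap5b (-2.39), Tbx15 (-2.36), Satb1 (-2.27) and Zfp57 (-2.18). It was more positive near Tspan12 (3.12) and Fam213a (2.42). Stage, culture and isolation cannot be told apart in this contrast.

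Between the Pou5f1-KO and Sox2-KO effects in early ICM 20 of the 88 named peaks differed, and of all peaks 0.372% were more negative and 0.308% more positive in Pou5f1-KO. The Pou5f1-KO effect was more negative near Tbx15 (-4.11), Nckap5 (-3.18), Galntl6 (-2.60), Socs2 (-2.34), Lats2 (-2.34), Nanog (8398 bp from its start, -2.29), Cntnap5b (-2.27), Cdx2 (-2.23), Pdhb (-2.13), Zfp57 (-2.04), Esrrb (-1.99), Wwtr1 (-1.83) and Pcsk6 (-1.05). It was more positive near Galnt15 (3.55), Elac2 (3.48), Mfap3l (3.24), Tbc1d9 (3.22), Fam213a (2.88), Fezf2 (2.81) and Tspan12 (2.58).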

How the results depend on the processing

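Of 89 named peaks, 73 kept their direction and their side of the threshold under every alternative run for them (up to 14), no called peak changed direction, 13 of the 77 called lost the call somewhere, and 2 of the 12 others gained it. The intronic Pou5f1 peak, not called, turned from -0.54 to 0.062 without KO replicate 4, with a range of -0.86 to 0.062 over the libraries left out. Without the peaks below the median level there were 4663 decreased and 2755 increased peaks, and 263 and 55 peaks with a more negative or more positive effect in early ICM than in late morula, since fewer peaks were tested. With the replicate block there were 10352 decreased and 6164 increased peaks, the counts for early ICM against late morula were 1053 and 408, and the counts of more negative and more positive effects in Pou5f1-KO than in Sox2-KO were 1476 and 1287. The block gave calls at Krt8 and Pou5f1 CR4 and changed no other named call. With only the libraries compared, 128 peaks were more positive in early ICM than in late morula, and 247 and 165 differed between the knockouts. Leaving out 1 library gave 2461 to 3950 increased peaks (2461 without Ctrl replicate 2, 2634 without KO replicate 4), 6397 to 7472 decreased peaks, 166 to 449 (166 without Ctrl replicate 4, 256 without KO replicate 3) and 35 to 112 (36, 38, 35 and 45 without Ctrl replicates 2 and 4 and KO replicates 3 and 4) for the stages, and 326 to 558 (326 without Ctrl replicate 2) and 222 to 551 (222 and 224 without Ctrl replicate 2 and KO replicate 4) for the knockouts. The cause of these shifts was not tested. Within 50 kb, 9.98% of naive gene peaks were decreased. Depth is unknown, and rlog understates differences at weak peaks.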

Other observations

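Some peaks share long stretches of sequence with many others, as copies of repeated elements would. These groups were formed after the values were seen, with no repeat annotation, by linking windows that share at least 50 words of 31 bases on either strand. In all, 6337 peaks were linked to another peak, 4.16% of all peaks, 5.11% of decreased and 4.43% of increased peaks. There were 39 groups of at least 10 peaks, with 4664 peaks together, and in 3 of them over 40% of peaks were decreased. In 1 group of 917 peaks 75 (8.18%) were increased and 3 decreased, against 2.753% and 5.43% of all peaks, and the median change from Ctrl morula to Ctrl late ICM was -1.54. In another, of 952 peaks, 31 (3.26%) were decreased and 6 increased. None of the named peaks was linked to another.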
